A study of Homo sapiens with 6 samples.

Results

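PLA2G2A and 9 other genes of platelet-activating factor (PAF) and prostanoid metabolism were described in HepG2 cells after PAIP1 knockdown. The 10 members are PLA2G2A, PLA2G4A, PTGS1, PTGS2, PTGES, PTGR1, LTA4H, PAFAH1B3, PTAFR and PTGDR2. They were found by their symbols in the deposited tables, out of 30987 genes with counts. The set was chosen by names with results of the same siPAIP1 over Ctrl comparison already known, so their values in that comparison are given as a description and carry no test. PLA2G4A had no row and was not analysed here, leaving 9 members with values, of which 7 passed the filter on low counts and entered the fit. PTGS1 and PTGS2 did not pass it.

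HepG2 is a human line derived from a liver tumor. The siPAIP1 group was 3 libraries from cells transfected with siRNA3, a single siRNA against PAIP1, and the Ctrl group was 3 libraries from cells given a non-targeting siRNA. Both groups were transfected with Lipofectamine and harvested after 48 h, and poly(A) RNA was sequenced. Only 1 siRNA and 1 line were used for these libraries, although the study also tried other PAIP1 siRNAs and Huh7 cells without sequencing them. The study calls the libraries of each group biological replicates, without saying whether they were separate cultures or transfections. Every p-value sets the group difference against the spread between these libraries.

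Membrane phospholipids are the store from which both lipid signals are made. A phospholipase A2 releases arachidonic acid, which cyclooxygenases and terminal synthases turn into prostaglandins and lipoxygenases into leukotrienes, and the remaining lysophospholipid can be acetylated to PAF. Reductases and acetylhydrolases inactivate these products, and G protein-coupled receptors on the cell surface read them. In the liver, PLA2G2A is best known as a secreted acute phase enzyme with antibacterial activity.

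The libraries held 29313211 to 34157368 counts in siPAIP1 and 31045623 to 34659866 counts in Ctrl. PAIP1 itself had 8.29, 6.54 and 5.47 FPKM in siPAIP1, against 26.83, 22.96 and 26.01 FPKM in Ctrl, where FPKM is fragments per kilobase of exon, scaled to library depth. Its log2 fold change was -1.93 ± 0.13 (SE), with a Benjamini-Hochberg adjusted p of 0.00092 by edgeR's quasi-likelihood test, which gave every adjusted p below. The library siPAIP1 replicate 3 stood apart, with 357 of 9247 well expressed genes more than 2-fold above the mean of its group's other libraries, against at most 7 in any other library. Each member is therefore also given without it. All 8 hepatocyte markers were expressed, with summed levels of 1678 to 2602 FPKM in siPAIP1 and 3046 to 3229 FPKM in Ctrl. These sums did not overlap, whereas the levels of AFP, APOB and HNF4A did, with 60.47 to 73.7 FPKM in siPAIP1 and 62.72 to 73.15 FPKM in Ctrl for APOB. The part of the sums in the members' differences was not tested. In bulk RNA, fewer cells with a transcript and less of it per cell cannot be told apart. Of the blood cell markers, PTPRC, which defines leukocytes, had 0 counts in siPAIP1 and 1, 0 and 0 counts in Ctrl and no FPKM row, and KIT, CD3E and PF4 had no row. LYZ was the 1 macrophage marker of 6 above 1 FPKM, and the macrophage list summed to 182 to 269 FPKM in siPAIP1 and 260 to 287 FPKM in Ctrl. The mast cell list summed to at most 0.21 FPKM in siPAIP1 and 0.23 FPKM in Ctrl. The other lists reached at most 1.82 FPKM in siPAIP1 and 2.09 FPKM in Ctrl, and these were the lymphocyte sums.

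PLA2G2A, PTGES, PTGR1, PTAFR and PTGDR2 were at least 2-fold lower in siPAIP1, while LTA4H and PAFAH1B3 lay close to Ctrl. Called lower, that is with an adjusted p under 0.05 in the fit over all genes, were 5 of the 7 members tested, beside 6.20% of the 15528 genes tested. The same 5 were called at least 2-fold lower, beside 1.10% of all genes, and had every siPAIP1 library below every Ctrl library in CPM (counts scaled to equal library totals), beside 17.6%. None of the 7 was called higher, beside 5.68%. Because the members were chosen with this comparison known, nothing is read from those counts. PTGES, which had few counts, was the 1 member not called when siPAIP1 replicate 2, Ctrl replicate 1 or Ctrl replicate 3 was left out, which gave 4. The members' median log2 fold change was -1.37, and that of all tested genes was 0.03.

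**Figure D1:**
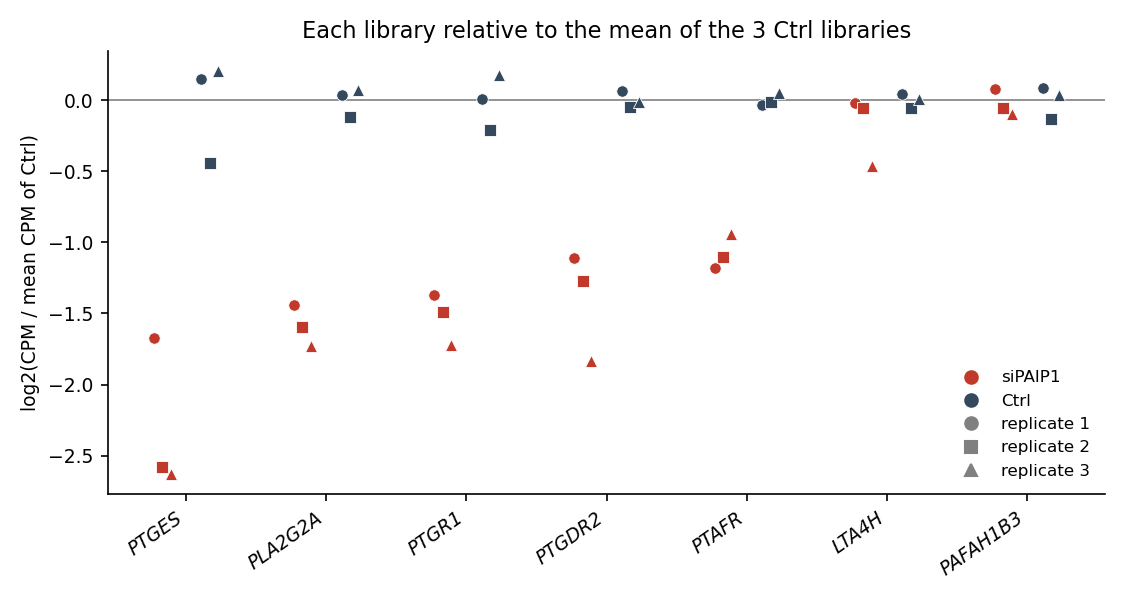
Each point is a library's CPM divided by the mean CPM of the 3 Ctrl libraries, on a log2 scale, for the 7 members tested (siPAIP1 left, Ctrl right, symbols mark replicates). For PTGES, PLA2G2A, PTGR1, PTGDR2 and PTAFR all 3 siPAIP1 libraries lie below every Ctrl library. LTA4H overlaps between the groups and is lowest in siPAIP1 replicate 3.

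Upstream of the start of PLA2G2A, PTGES and PTAFR the following sequences are shown, since these are lower members whose annotated start matches between the RefSeq and GENCODE models used. Each is RefSeq sequence of GRCh38.p14, 5′ to 3′ on the gene's strand (minus for all), and capitals mark the only motif match found. The PLA2G2A stretch is chr1:19979691-19979868, shortened by the 72 bases nearest the start because another PLA2G2A transcript has an exon there. That of PTGES is chr9:129753043-129753292 and that of PTAFR is chr1:28176691-28176940.
PLA2G2A: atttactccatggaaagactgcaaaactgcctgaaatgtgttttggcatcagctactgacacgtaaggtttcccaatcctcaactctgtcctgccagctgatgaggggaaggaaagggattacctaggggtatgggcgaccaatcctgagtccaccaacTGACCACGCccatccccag
PTGES: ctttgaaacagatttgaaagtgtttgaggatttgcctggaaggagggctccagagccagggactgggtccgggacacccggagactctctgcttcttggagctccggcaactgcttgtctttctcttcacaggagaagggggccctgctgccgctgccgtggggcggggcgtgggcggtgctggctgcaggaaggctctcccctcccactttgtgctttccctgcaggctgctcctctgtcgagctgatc
PTAFR: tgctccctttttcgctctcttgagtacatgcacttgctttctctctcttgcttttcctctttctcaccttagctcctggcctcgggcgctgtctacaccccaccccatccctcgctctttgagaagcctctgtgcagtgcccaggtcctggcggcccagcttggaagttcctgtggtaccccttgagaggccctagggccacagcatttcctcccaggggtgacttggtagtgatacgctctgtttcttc
The motifs searched on both strands of the 250 bases before the start were the antioxidant response element core TGACNNNGC, a STAT site TTCNNNGAA, a C/EBP site TTGCNNAA and the TATA box TATAAA, and no motif lies within another. They occur in 10.9%, 6.57%, 9.05% and 10.7% of all 35116 windows of that length. PLA2G2A held 1 match, the antioxidant response core TGACCACGC beginning 91 bases before the start. The same core stood in the window of PTGS1, a member with almost no counts, as TGACACGGC, 157 bases before a RefSeq start that lies 491 bases from the GENCODE one. Only the window nearest the GENCODE start was searched, 1 of 3 listed for PLA2G2A and 1 of 2 for PTAFR. PTGES and PTAFR held none of the 4, nor did PTGR1, whose RefSeq start lies 216 bases from the GENCODE one. PTGDR2 was not searched. A match is a run of letters, not a site shown to be used.

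The siRNA's antisense strand is shown because its seed, bases 2 to 8 in capitals, can pair with unintended transcripts.
siRNA3 antisense: uAUCAUCCaaguauggauctt
The complementary word GGATGAT stood in the 3′ UTR of 1068 of 12572 tested coding genes (8.50%) and of 1 of the 10 members, PTAFR, with 1 copy in 2827 bases. PLA2G2A (266 bases), PTGES (1262), PTGR1 (554) and PTGDR2 (1602) had no copy. Whether siRNA3 acts on PTAFR through this word was not tested.

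The phospholipases come first in the pathway. PLA2G2A occupies chr1:19975431-19980416 (minus strand, GENCODE 44, GRCh38), has 5 exons in its canonical transcript and overlaps no other gene of the count table. Its level was 122.34, 111.32 and 91.67 FPKM in siPAIP1, against 325.48, 289.28 and 339.48 FPKM in Ctrl. The groups did not overlap, and even the lowest Ctrl library was above the highest siPAIP1 library by more than the spread within either group. PLA2G2A was the most abundant member, ranking 157 to 167 among 30706 genes by FPKM in Ctrl, where 1 is the highest, and 443 to 505 in siPAIP1. Raw counts were 4595, 4226 and 3315 in siPAIP1 and 12507, 11116 and 11686 in Ctrl, so that counting error is small beside the difference. Mean CPM was 122 ± 12.0 in siPAIP1 and 364 ± 25.6 in Ctrl (SD, n = 3 each), or 33.4% of Ctrl. This corresponds to a log2 fold change of -1.58 ± 0.099 (SE), and -1.52 without siPAIP1 replicate 3.

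PLA2G2A sits in a cluster of 6 secreted phospholipase A2 genes spanning 266.5 kb of chromosome 1. PLA2G2E, 51.8 kb away and a related secreted enzyme, was the only neighbour with enough counts for the fit. It had 3.14, 2.18 and 5.51 FPKM in siPAIP1, against 3.04, 4.37 and 2.7 FPKM in Ctrl. These values overlapped, with the highest in siPAIP1 replicate 3, and the log2 fold change was 0.09 ± 0.38 (SE), with an adjusted p of 0.90. Its direction turned without siPAIP1 replicate 3 (-0.42) or Ctrl replicate 3 (-0.06), and the value was 0.37 without siPAIP1 replicate 2. PLA2G5, PLA2G2D, PLA2G2F and PLA2G2C, named for their position, had 0 to 6 counts per library. Of the other secreted enzymes, PLA2G12B had 10.4 FPKM in siPAIP1 and 11.7 FPKM in Ctrl with a log2 fold change of -0.20 (adjusted p = 0.25). PLA2G15, a lysosomal phospholipase, had a log2 fold change of -0.07 and was not called. PLA2G12A, another secreted form, had 2.95 ± 0.423 FPKM in siPAIP1 and 2.10 ± 0.173 FPKM in Ctrl (SD, n = 3 each) and was called higher (log2 fold change 0.46, adjusted p = 0.030). That call was lost without any 1 library except siPAIP1 replicate 3 (adjusted p 0.0837 to 0.108). Thus the abundance of PLA2G2A among the secreted enzymes was lower in siPAIP1, but it was still the most abundant of those tested in both groups.

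**Figure D2:**
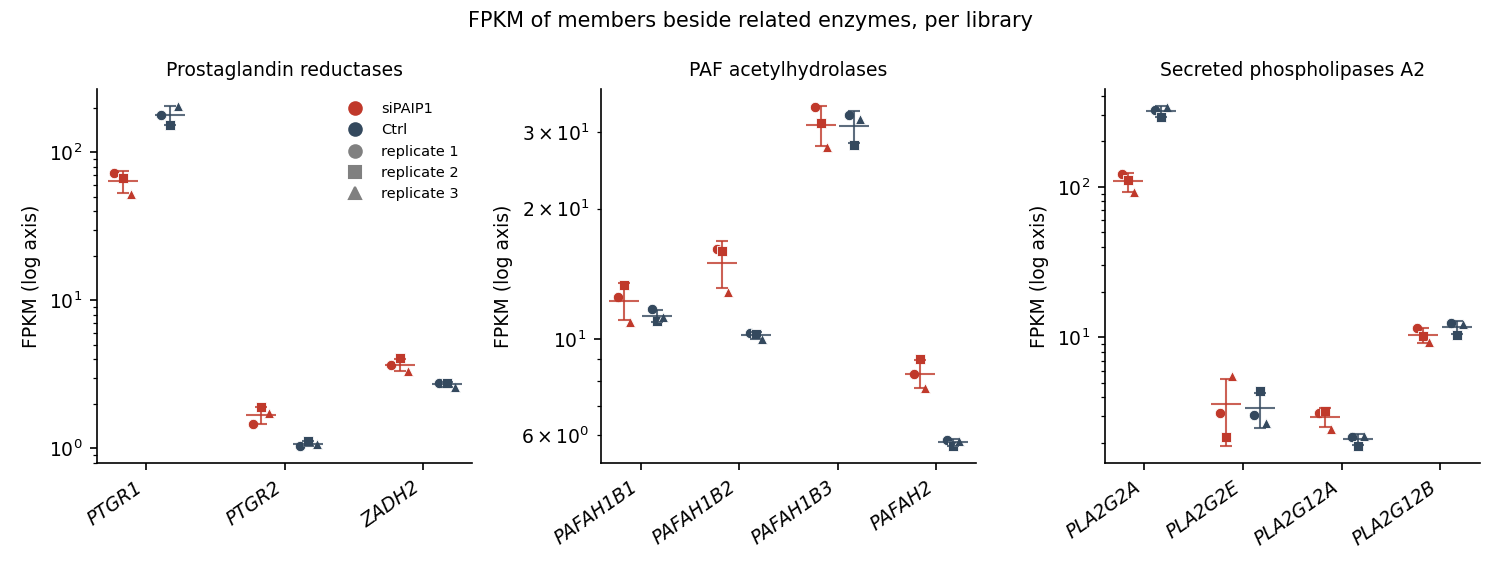
FPKM per library on log axes for prostaglandin reductases, PAF acetylhydrolases and secreted phospholipases A2, with siPAIP1 left of Ctrl, bars for mean and SD (n = 3) and symbols for replicates. PTGR1 and PLA2G2A are lower in siPAIP1, PTGR2, ZADH2, PAFAH1B2, PAFAH2 and PLA2G12A are higher, and PAFAH1B1, PAFAH1B3, PLA2G2E and PLA2G12B overlap.

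The cyclooxygenases PTGS1 and PTGS2, which commit arachidonic acid to prostanoids, were close to undetected. PTGS1 had 0, 2 and 0 counts in siPAIP1, against 0, 0 and 2 counts in Ctrl. For PTGS2 the counts were 1, 0 and 0 in siPAIP1 and 0, 1 and 0 in Ctrl. With at most 2 counts in any library, no difference was detectable at this depth for either enzyme.

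PTGES, the inducible prostaglandin E synthase, converts the cyclooxygenase product to prostaglandin E2. It occupies chr9:129738331-129753042 (minus strand) and overlaps no other gene of the table. PTGES had 0.17, 0.09 and 0.08 FPKM in siPAIP1, against 0.57, 0.38 and 0.61 FPKM in Ctrl. The raw counts behind these are 11, 6 and 5 in siPAIP1 and 38, 25 and 36 in Ctrl. The groups did not overlap, though all 6 values are low. Without its Ctrl libraries PTGES would not have passed the filter, so the filter itself favored a lower value in siPAIP1. Mean CPM was 0.219 ± 0.0878 in siPAIP1 and 1.02 ± 0.235 in Ctrl (SD, n = 3 each). Its log2 fold change was -2.19 ± 0.35 (SE), the lowest of the 7 members with the largest standard error, and it was -2.04 without siPAIP1 replicate 3.

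PTGR1 encodes prostaglandin reductase 1, which reduces 15-keto prostaglandins and also inactivates leukotriene B4. The gene occupies chr9:111549722-111599893 (minus strand) and overlaps ZNF483 on the other strand, and whether the authors' counting used strand is not given. PTGR1 had 72.86, 67.63 and 52.17 FPKM in siPAIP1, against 180.11, 153.95 and 205.92 FPKM in Ctrl. It was the second member in abundance in both groups, and the groups did not overlap. Counts were 4133, 3877 and 2849 in siPAIP1 and 10452, 8934 and 10705 in Ctrl. CPM averaged 109 ± 13.1 in siPAIP1 and 311 ± 40.9 in Ctrl (SD, n = 3 each), or 34.9% of Ctrl. The log2 fold change was -1.52 ± 0.13 (SE), and -1.43 without siPAIP1 replicate 3.

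The other reductases of 15-keto prostaglandins differed from Ctrl in the other direction. PTGR2 was 1.45, 1.9 and 1.72 FPKM in siPAIP1, against 1.04, 1.12 and 1.07 FPKM in Ctrl, and rose with a log2 fold change of 0.62 (adjusted p = 0.028). ZADH2, also known as PTGR3, had 3.66, 4.05 and 3.32 FPKM in siPAIP1, against 2.76, 2.75 and 2.6 FPKM in Ctrl, and rose with a log2 fold change of 0.41 (adjusted p = 0.018). Neither gene's groups overlapped, although PTGR2 shares its locus with other annotated genes, and both were expressed far below PTGR1 per kilobase. The PTGR2 call was lost without siPAIP1 replicate 2 or any Ctrl library (adjusted p 0.0785 to 0.119), and so was that of ZADH2 (0.0611 to 0.0948). ABCC4, an exporter of prostaglandins, fell by 0.50 on the log2 scale (2.26 FPKM in siPAIP1, 3.14 FPKM in Ctrl, adjusted p = 0.014), a call lost without siPAIP1 replicate 2, Ctrl replicate 1 or Ctrl replicate 3 (0.0520 to 0.0721).

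Among the other prostanoid synthases, 0 of 8 tested genes of 10 listed were called by edgeR's quasi-likelihood test, although 4 had an unadjusted p under 0.05. Of all genes, 6.20% were called lower and 5.68% higher. DESeq2 and edgeR's exact test each called 1, AKR1C3, lower, and limma-trend on FPKM called 0. Without siPAIP1 replicate 3, AKR1C3 (adjusted p = 0.019) and PTGES2 (0.028) were called lower and PTGDS (0.015) higher. PTGES2 and PTGDS were named after their values were seen. That run called 3809 genes in all, against 1845 with every library. Among the 3 most abundant synthases was AKR1C3, a reductase that makes prostaglandin F, with 150 FPKM in siPAIP1 and 206 FPKM in Ctrl (log2 fold change -0.49, adjusted p = 0.083). Its sequence is near that of the other AKR1C genes, so that its counts are uncertain. PTGES3, a second prostaglandin E synthase and chaperone partner, had 168 FPKM in siPAIP1 and 201 FPKM in Ctrl (-0.29, adjusted p = 0.099). AKR1B1, an aldose reductase with prostaglandin F synthase activity, had 98.7 FPKM in siPAIP1 and 113 FPKM in Ctrl. These 3 synthases were expressed far above PTGES in both groups. Enzymes that return arachidonic acid to phospholipids were not called either, 0 of 4 beside the same shares of all genes. Of the 4, 2 had an unadjusted p under 0.05, and 1, ACSL4, was called lower by DESeq2 alone of the tools run. LPCAT3 had 43.9 FPKM in siPAIP1 and 51.9 FPKM in Ctrl (adjusted p = 0.055). ACSL4 had 15.6 FPKM in siPAIP1 and 19.2 FPKM in Ctrl (adjusted p = 0.063). LPCAT3 and ACSL4 were both called lower without siPAIP1 replicate 3 (0.019 and 0.011). The same held with a filter at a CPM of 1 in 3 libraries (0.040 and 0.049). ACSL3 had a log2 fold change of -0.10.

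LTA4H, leukotriene A4 hydrolase, makes leukotriene B4, the ligand that PTGR1 can inactivate. Its position is chr12:96000753-96043520 (minus strand), where 2 unnamed genes of the count table overlap it on the other strand. LTA4H had 32.26, 31.70 and 21.57 FPKM in siPAIP1, against 32.02, 29.65 and 31.86 FPKM in Ctrl. In FPKM only siPAIP1 replicate 3 was low, and the other siPAIP1 libraries lay near the highest Ctrl value or above it. In CPM the values were 81.4, 79.3 and 59.6 in siPAIP1, against 84.9, 79.2 and 82.9 in Ctrl. There siPAIP1 replicate 3 was again the only library below all Ctrl libraries, but no siPAIP1 library exceeded the highest Ctrl value. Mean CPM was 73.4 ± 12.0 in siPAIP1 and 82.3 ± 2.90 in Ctrl (SD, n = 3 each). The log2 fold change was -0.16 ± 0.12 (SE), and -0.04 without siPAIP1 replicate 3.

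In the list of lipoxygenase and leukotriene genes, 4 of 8 tested genes were called lower, beside 6.20% of all genes, and none higher, beside 5.68%. The median log2 fold change was -0.49. This list too was written with results of the comparison known, so nothing is read from its counts. No lipoxygenase is among the 4, and ALOX5, the 5-lipoxygenase, had 0 to 3 counts per library. DPEP1, a dipeptidase that turns leukotriene D4 into E4, had 23.79, 22.9 and 19.21 FPKM in siPAIP1, against 40.18, 39.44 and 46.26 FPKM in Ctrl (log2 fold change -0.96, adjusted p = 0.0017). CYP4F3, a leukotriene B4 omega-hydroxylase, had 2.28, 2.23 and 2.38 FPKM in siPAIP1, against 4.22, 4.63 and 4.22 FPKM in Ctrl (-0.95, adjusted p = 0.0025). DPEP1 and CYP4F3 did not overlap between groups, and both stayed called in every alternative run. The related CYP4F2 fell too (-0.57, adjusted p = 0.017). Since only uniquely mapped reads were counted, reads that match both CYP4F2 and CYP4F3 may be missing, so that their counts are uncertain. MGST2, which can make leukotriene C4, was the most abundant at 105 FPKM in siPAIP1 and 136 FPKM in Ctrl (-0.41, adjusted p = 0.037). The CYP4F2 call was lost without siPAIP1 replicate 2 (0.0563), Ctrl replicate 2 (0.0649) or Ctrl replicate 3 (0.0754). MGST2 was not called without any 1 library except siPAIP1 replicate 3 (0.0502 to 0.15). GGT1, which acts on leukotriene C4, had 24.0 FPKM in siPAIP1 and 25.0 FPKM in Ctrl and was not called. In the neighbouring epoxide branch, EPHX1, the microsomal epoxide hydrolase, had 81.39, 72.06 and 58.88 FPKM in siPAIP1, against 107.59, 107.22 and 120.64 FPKM in Ctrl (-0.69, adjusted p = 0.0072), and kept its call in every alternative run. On the other strand, EPHX1 is overlapped by TMEM63A and MGST2 by MAML3. EPHX2, the soluble hydrolase of arachidonic epoxides, had 5.62 FPKM in siPAIP1 and 6.62 FPKM in Ctrl (adjusted p = 0.051). CYP2J2, an epoxygenase, had a log2 fold change of -0.27 and was not called.

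PAFAH1B3 is a catalytic subunit of the intracellular PAF acetylhydrolase of type I, which removes the acetyl group of PAF. The gene, at chr19:42297033-42303546 (minus strand), overlaps PRR19 on the other strand. PAFAH1B3 had 34.33, 31.55 and 27.72 FPKM in siPAIP1, against 32.83, 28.04 and 32.27 FPKM in Ctrl, and the groups overlapped. Mean CPM was 41.2 ± 2.66 in siPAIP1 and 41.8 ± 3.22 in Ctrl (SD, n = 3 each), or 98.5% of Ctrl. The log2 fold change was -0.02 ± 0.088 (SE), and 0.01 without siPAIP1 replicate 3. Its level could not be ordered against that of LTA4H, since their ranges overlapped within both groups.

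Of the 6 other PAF genes tested, 2 were called higher, beside 5.68% of all genes, and none lower, beside 6.20%. They were listed with results of the comparison known, so nothing is read from these counts. PAFAH1B2, the other catalytic subunit, had 16.18, 15.96 and 12.86 FPKM in siPAIP1, against 10.35, 10.27 and 10.01 FPKM in Ctrl (log2 fold change 0.52, adjusted p = 0.0077). PAFAH2, the cytosolic acetylhydrolase of type II, had 8.31, 8.98 and 7.71 FPKM in siPAIP1, against 5.85, 5.67 and 5.82 FPKM in Ctrl (0.50, adjusted p = 0.0067). In both genes all siPAIP1 libraries were above all Ctrl libraries. PAFAH2 stayed called in every alternative run, whereas PAFAH1B2 missed the threshold without Ctrl replicate 1 (0.0509) or Ctrl replicate 3 (0.0578). PAFAH1B1, the regulatory subunit, named after its values were seen, had 12.3 FPKM in siPAIP1 and 11.3 FPKM in Ctrl and was not called. On the synthesis side, CHPT1, a cholinephosphotransferase, had 42.3 FPKM in siPAIP1 and 50.7 FPKM in Ctrl (-0.30, adjusted p = 0.10). CHPT1 was called lower without siPAIP1 replicate 3 (0.039). LPCAT1, which can acetylate the PAF precursor, had 22.8 FPKM in siPAIP1 and 18.2 FPKM in Ctrl (0.30, adjusted p = 0.10).

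PTAFR, the PAF receptor, occupies chr1:28147166-28193936 (minus strand) and overlaps no other gene of the table. It had 2.10, 2.22 and 2.25 FPKM in siPAIP1, against 4.41, 4.43 and 4.74 FPKM in Ctrl. Values varied little within either group, and the groups did not overlap. Counts were 360, 386 and 372 in siPAIP1 and 775, 778 and 747 in Ctrl. Mean CPM was 11.3 ± 0.949 in siPAIP1 and 23.7 ± 0.691 in Ctrl (SD, n = 3 each), or 47.6% of Ctrl. The log2 fold change was -1.07 ± 0.088 (SE), and -1.14 without siPAIP1 replicate 3, so that this library did not carry the difference.

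PTGDR2, a prostaglandin D2 receptor first described on T cells and eosinophils, occupies chr11:60850933-60855950 (minus strand). It overlaps CCDC86 on the other strand and CCDC86-AS1 on its own, so that its counts are uncertain. PTGDR2 had 0.73, 0.66 and 0.40 FPKM in siPAIP1, against 1.56, 1.43 and 1.51 FPKM in Ctrl. The lowest value was in siPAIP1 replicate 3, and the groups did not overlap. Counts were 77, 70 and 41 in siPAIP1 and 169, 155 and 146 in Ctrl. CPM averaged 1.87 ± 0.457 in siPAIP1 and 4.84 ± 0.198 in Ctrl (SD, n = 3 each). The log2 fold change was -1.37 ± 0.19 (SE), and -1.19 without siPAIP1 replicate 3.

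Other receptors of the pathway were sparse, and none of the 5 tested was called by edgeR's quasi-likelihood test, with 1 at an unadjusted p under 0.05. By that test 6.20% of all genes were called lower and 5.68% higher. DESeq2 and edgeR's exact test each called 1, OXER1, lower, and limma-trend on FPKM called 0. PTGER1, a prostaglandin E2 receptor, had 0.487 FPKM in siPAIP1 and 0.327 FPKM in Ctrl (log2 fold change 0.55, adjusted p = 0.25). The thromboxane receptor TBXA2R had 0.143 FPKM in siPAIP1 and 0.0933 FPKM in Ctrl, a log2 fold change of 0.63 that was 0.10 without siPAIP1 replicate 3. PTGIR, the prostacyclin receptor, did not pass the filter, with 10, 24 and 17 counts in siPAIP1 and 0, 2 and 8 counts in Ctrl. OXER1, a receptor for oxidized arachidonic acid, had 2.77 FPKM in siPAIP1 and 4.02 FPKM in Ctrl (-0.57, adjusted p = 0.065), and passed the threshold without siPAIP1 replicate 3 (adjusted p = 0.010). LTB4R, the high-affinity leukotriene B4 receptor, had 3.32 FPKM in siPAIP1 and 2.18 FPKM in Ctrl (0.60, adjusted p = 0.26), and its log2 fold change was 0.15 without siPAIP1 replicate 3. Its low-affinity relative LTB4R2 had 147, 172 and 489 counts in siPAIP1, against 118, 153 and 132 counts in Ctrl (1.02, adjusted p = 0.22). The high value of LTB4R2 was in siPAIP1 replicate 3, without which its log2 fold change was 0.14, and the gene overlaps LTB4R, CIDEB and NOP9.

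**Figure D3:**
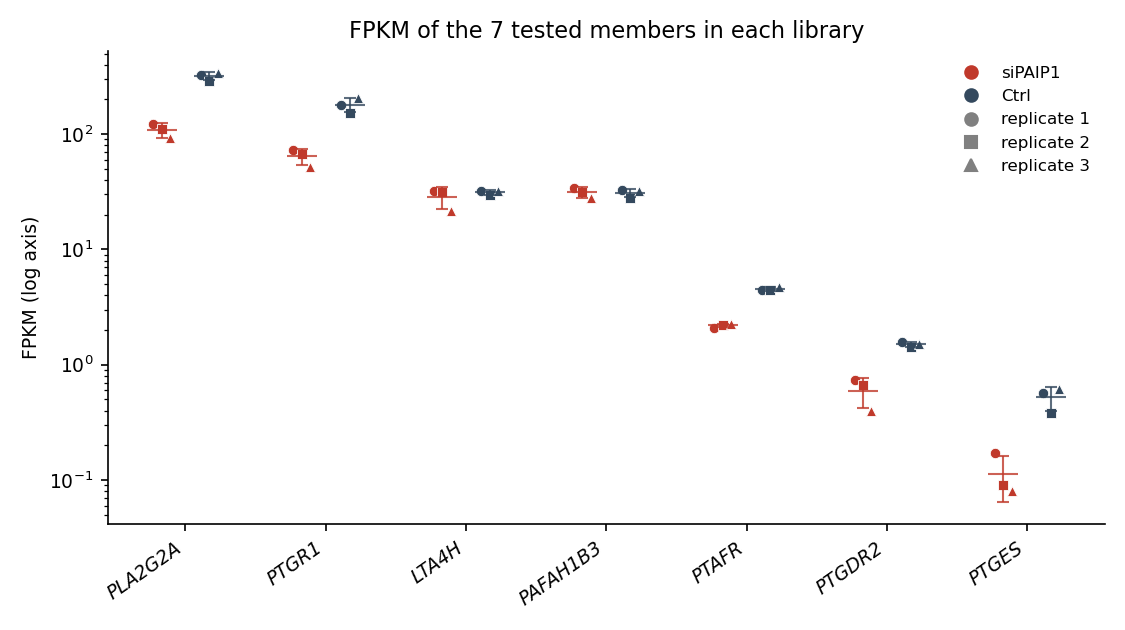
FPKM on a log axis in each library for the 7 members tested, ordered by level, siPAIP1 left and Ctrl right, with bars for mean and SD (n = 3) and symbols for replicates. Levels run down to 0.08 FPKM for PTGES in siPAIP1 and up to 339.48 FPKM for PLA2G2A in Ctrl, and the order of the members is the same in both groups except for LTA4H and PAFAH1B3, whose ranges overlap.

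Within each group the members fell in the order PLA2G2A, PTGR1, LTA4H with PAFAH1B3, PTAFR, PTGDR2 and PTGES by FPKM. Except for LTA4H and PAFAH1B3, neighbours in that order did not overlap in either group. Across the 6 libraries, log2(CPM + 0.5) of PLA2G2A had a Pearson r of 0.996 with PTGR1, 0.982 with PTGDR2, 0.981 with PTGES and 0.972 with PTAFR. It was 0.602 with LTA4H and 0.239 with PAFAH1B3. For PTGES the added 0.5 is above its mean CPM in siPAIP1 (0.219), so its r depends on that choice. The 6 libraries form 2 groups, so that r mostly restates the group difference, and it was not tested. Of 8997 protein-coding genes with a mean CPM of at least 10, 491 (5.46%) had an r above 0.95. The 5 most alike were HSD17B2 (r = 0.9985), TGFBI (0.9982), PAIP1 (0.9981), HMOX1 (0.9980) and RNF185 (0.9974). HSD17B2, a steroid dehydrogenase, had 8.58 CPM in siPAIP1 and 30.0 CPM in Ctrl, and HMOX1, the inducible heme oxygenase, had 69.5 CPM in siPAIP1 and 136 CPM in Ctrl.

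Over the pathway as a whole, 82 other genes were listed, 74 had a row and 45 were tested. Of the 45, 5 rose and 6 fell, 24.4% together, beside 5.68% higher and 6.20% lower among all tested genes, and 34 were not called. With a library left out, the calls ranged over 4 (without Ctrl replicate 3) to 20 (without siPAIP1 replicate 3). The list was written with results of this comparison known, so nothing is read from these counts. The median log2 fold change of the 45 was -0.15, within a range of -0.96 (DPEP1) to 1.02 (LTB4R2). Without siPAIP1 replicate 3 the value of LTB4R2 was 0.14, below the 0.58 of PAFAH1B2 in that run.

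**Figure D4:**
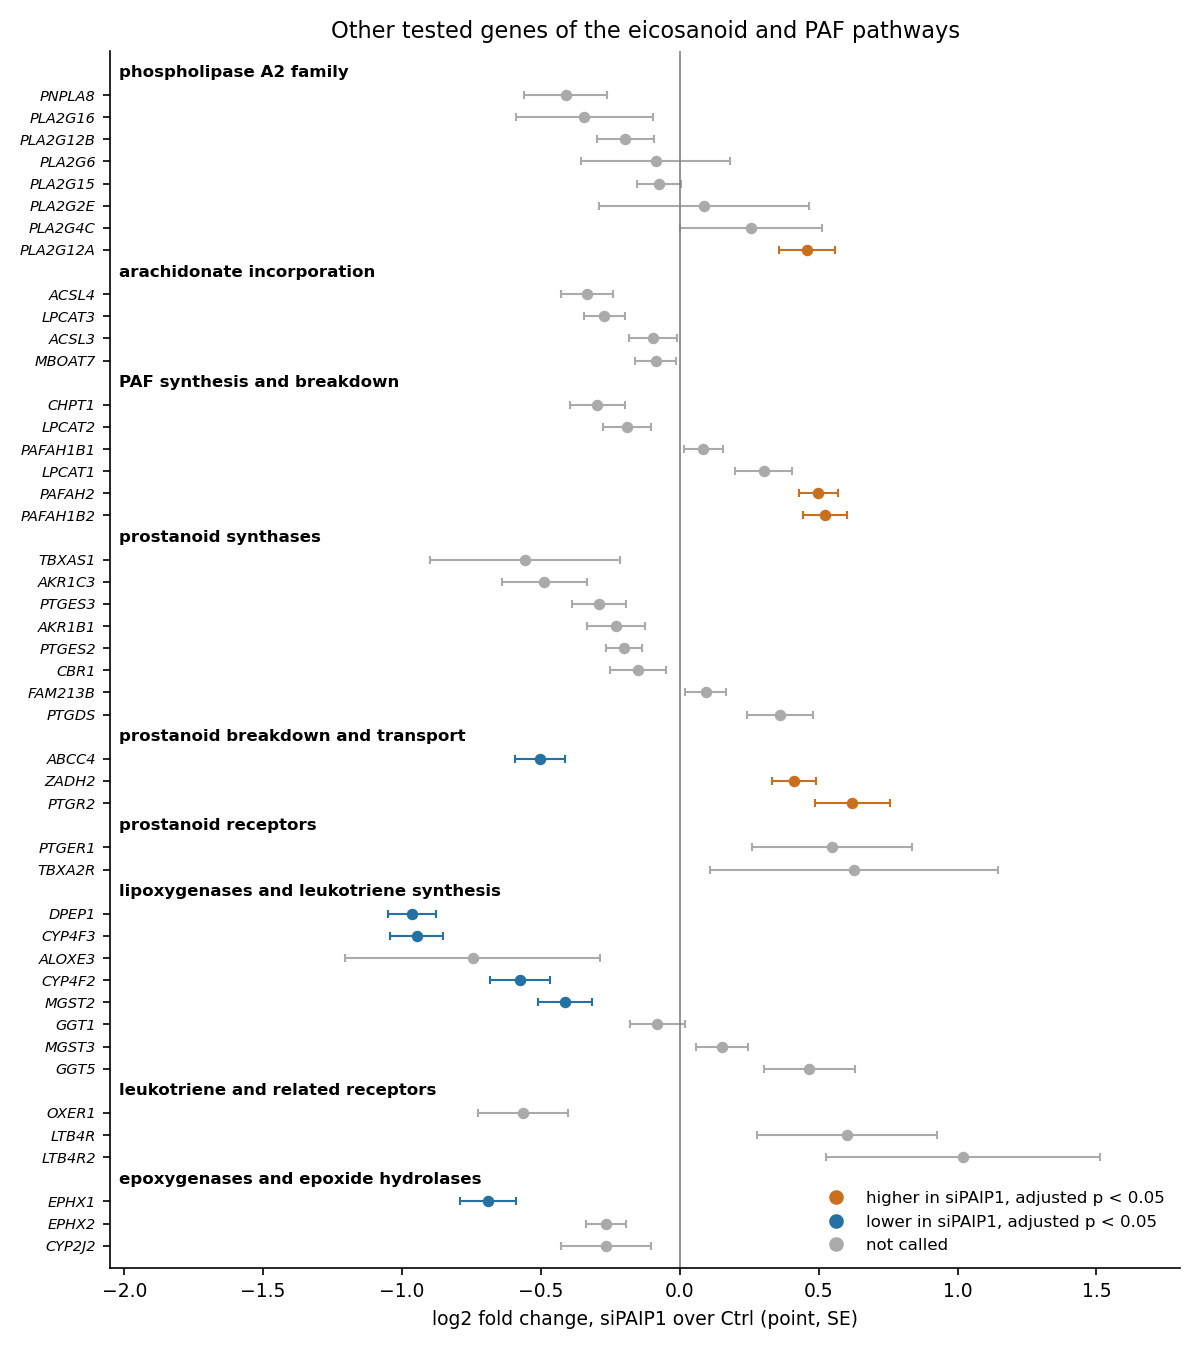
Log2 fold change of siPAIP1 over Ctrl with its SE for the 45 other pathway genes tested, grouped by role and ordered within role. The 5 genes called higher and the 6 called lower (adjusted p under 0.05, edgeR) are colored, and DPEP1 has the lowest value at -0.96 while LTB4R2 has the highest at 1.02, which was 0.14 without siPAIP1 replicate 3.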

How the data were processed

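RNA from 3 siPAIP1 and 3 Ctrl samples of HepG2 cells was sequenced by the authors. Per the study's methods, reads were trimmed with FASTX-Toolkit 0.0.13, those with more than 2 N bases or shorter than 16 nt were dropped, and the rest were aligned with TopHat2 to GRCh38 with at most 4 mismatches. The deposited counts are the authors' raw numbers of uniquely mapped reads per gene, and the deposited FPKM values were computed by the authors with 2 decimals. Not given in the sources used here are the counting tool, its strand setting, the gene annotation and the versions of bcl2fastq, TopHat2 and the authors' edgeR.

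Counts of 30987 genes were filtered in R 4.3.3 with filterByExpr (minimum count 10, total 15), which kept 15528. Groups were compared by edgeR 4.0.16 with TMM factors and the quasi-likelihood test, adjusted by Benjamini-Hochberg over those genes. Alternatives used limma 3.58.1, DESeq2 1.42.0, other scalings and filters, a replicate block and each library left out. Python 3.11.15 with pandas 2.3.3 and matplotlib 3.10.9, GENCODE 44 and RefSeq windows (GRCh38.p14) gave annotation and figures. The code was tested on simulated data.

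The members and the lists of 82 pathway genes and of cell markers were chosen with earlier results of these data known. Named genes were all members, every other pathway gene with an adjusted p under 0.05, up to 3 genes of each role with the highest mean FPKM, the 5 genes most like PLA2G2A, and PAIP1.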

Additional observations from a re-analysis of the deposited data

How the results depend on the processing

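The fit over all genes called 1845 genes. With the replicate block it called 825, and leaving out each library gave 463 (without Ctrl replicate 3) to 3809 (without siPAIP1 replicate 3). The 11 calls among the other pathway genes became 7 by limma-trend on log2(FPKM + 0.1), 7 on log2(FPKM + 1) and 7 with the block, and ranged over 4 (without Ctrl replicate 3) to 20 (without siPAIP1 replicate 3). Same-numbered replicates had correlations of their deviations from the group means of 0.35, -0.37 and -0.17, and not every library correlated best with its own number. Deviations within a group cancel out, so these values cannot decide whether same-numbered libraries were handled together. The main fit therefore treats the libraries as unpaired without showing that they are. The block also ended the calls of PLA2G12A (adjusted p = 0.0813), PTGR2 (0.0606), ZADH2 (0.0566) and MGST2 (0.0796), limma-trend on FPKM those of PLA2G12A, ZADH2, ABCC4 and MGST2, and upper-quartile factors that of MGST2 (0.0562). The members' median log2 fold change of -1.37 was -0.65 on log2(FPKM + 1), a scale that understates changes of low genes, and -1.52 to -1.19 with a library left out. A filter at a CPM of 1 in 3 libraries dropped PTGES and gives no such median. All 7 members tested kept the sign of their change in every alternative except PAFAH1B3, whose value ranged over -0.09 to 0.02 with a library left out. With 5 to 38 counts per library, depth limits PTGES most among the members tested.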
